A study of Mus musculus with 12 samples.

Results

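Among the 1410 olfactory and vomeronasal receptor rows of a mouse embryo array series, 138 had a signal at least 1 log2 unit higher in 2-cell embryos than in pronuclear embryos, and they are described here against the other 1272. The members were chosen by that difference itself: the row had to carry exactly 1 gene symbol, starting with Olfr or Vmn, and the mean of its 2-cell signals minus the mean of its pronuclear signals had to reach 1. They comprised 103 olfactory receptors (Olfr), 25 type 1 vomeronasal receptors (Vmn1r) and 10 type 2 vomeronasal receptors (Vmn2r), each with a symbol of its own. The comparison of 2-cell with pronuclear embryos is therefore given for them as a description, without a test.

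RNA of whole mouse embryos was hybridised to 12 Clariom S Mouse arrays, which hold a set of probes for each well-annotated gene. Pronuclear embryos (E0.5, the zygote before its first division), 2-cell embryos (E1.5) and morulae (E2.5) were each measured as 2 pools of an unstated number of embryos, and E10.5 and E16.5 embryos as 3 individuals each, all from superovulated, naturally mated females of a strain that the labels do not name. The zygotes were rinsed and cultured in KSOM, a medium for embryos. The values are log2 signals, in which a difference of 1 is not calibrated as a doubling of RNA, and a signal depends on its probes, so an order of signals between genes is not an order of RNA abundance. Separate mothers are not stated for the pools and embryos in the labels, and p-values then measure only how far these samples spread. In whole embryos, fewer cells of a type and less RNA per cell cannot be told apart.

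Chemosensory receptors are membrane proteins coupled to G proteins. Olfactory receptors are known from the cilia of sensory neurons in the nose, where each mature neuron typically expresses a single receptor gene out of large gene clusters held in silent chromatin, and the vomeronasal receptors from the neurons of the vomeronasal organ, which detect pheromones. The 2-cell stage of the mouse is known for the main activation of the embryo's own genome, led by families such as Zscan4, Tdpoz and Usp17l.

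The sequences ahead of the 4 members with the largest differences are shown because they let the reader compare the starts of the receptors that stood farthest above the rest. They are taken from RefSeq (GRCm38.p6), 250 bases before to 50 bases after the annotated start, 5′ to 3′ on the gene's strand. Capitals mark matches on either strand to 7 motifs that were searched: the TATA box TATAAA, the CCAAT box CCAAT, the OBOX-type homeodomain motif GGATTA, the homeodomain motif TAATTA, the core CCCNNGG of the Ebf (O/E) site, the GC box GGGCGG and the nuclear receptor element AGGTCA.
Olfr815: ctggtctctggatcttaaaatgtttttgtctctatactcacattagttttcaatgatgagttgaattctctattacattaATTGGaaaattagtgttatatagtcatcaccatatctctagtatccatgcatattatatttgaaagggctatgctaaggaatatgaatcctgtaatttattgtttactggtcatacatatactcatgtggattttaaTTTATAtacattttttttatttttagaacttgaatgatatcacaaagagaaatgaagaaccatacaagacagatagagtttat
Olfr787: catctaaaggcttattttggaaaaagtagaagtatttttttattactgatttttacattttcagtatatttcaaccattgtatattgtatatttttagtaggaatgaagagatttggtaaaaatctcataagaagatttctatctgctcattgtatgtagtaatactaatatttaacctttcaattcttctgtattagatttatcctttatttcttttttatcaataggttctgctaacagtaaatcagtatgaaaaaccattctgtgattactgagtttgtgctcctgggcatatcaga
Olfr118: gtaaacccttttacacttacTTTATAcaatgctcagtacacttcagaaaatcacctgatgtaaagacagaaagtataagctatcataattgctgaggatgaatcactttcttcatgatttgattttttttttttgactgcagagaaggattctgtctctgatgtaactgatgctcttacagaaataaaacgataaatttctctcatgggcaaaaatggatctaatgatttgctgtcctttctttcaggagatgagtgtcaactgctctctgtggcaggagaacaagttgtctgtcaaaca
Olfr881: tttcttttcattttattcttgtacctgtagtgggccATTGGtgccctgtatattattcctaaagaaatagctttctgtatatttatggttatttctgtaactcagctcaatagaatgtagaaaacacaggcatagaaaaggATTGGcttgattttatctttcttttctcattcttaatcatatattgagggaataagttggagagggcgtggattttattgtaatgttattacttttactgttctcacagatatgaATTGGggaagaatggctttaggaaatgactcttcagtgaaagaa
Olfr815 lies on the minus strand of chromosome 10 (window chr10:129902677-129902976), Olfr787 on the plus strand of chromosome 10 (chr10:129462428-129462727), Olfr118 on the plus strand of chromosome 17 (chr17:37671775-37672074) and Olfr881 on the plus strand of chromosome 9 (chr9:37992242-37992541). The Olfr815 window held TATAAA at position -33 and CCAAT at -170, counted from the annotated start. Olfr118 held TATAAA at -230, Olfr881 held CCAAT at -214, -109 and 7, and the Olfr787 window held none of the 7 motifs. All these matches were on the strand opposite to the gene, where the capitals read TTTATA or ATTGG.

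A RefSeq window was found for 109 of the 138 members and for 1080 of the other receptors. In 88 of the 109 the annotated start was an ATG, so that most windows cover the bases before the start codon and need not reach the start of transcription. The members' windows were poor in G and C (median 34.0%), as were those of the other receptors (35.7%), against 52.7% over 27025 RefSeq genes. TATAAA occurred in 46.8% of member windows, 38.7% of other receptor windows and 14.1% of all, while GGATTA occurred in 12.8%, 9.54% and 7.23% in the same order. The shares with TAATTA were 16.5% of members, 17.3% of other receptors and 5.40% of all genes. CCAAT was found in 38.5%, 42.3% and 37.8%, AGGTCA in 10.1%, 11.9% and 16.2%, and CCCNNGG in 16.5%, 19.8% and 50.4% of members, other receptors and all genes. GGGCGG was in 0 of the 109 member windows, in 0.926% of other receptor windows and in 35.6% of all. A match is a run of letters and not a bound site, and the shares were not tested against each other.

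Most of the 138 differences were small and a few were very large. The members' median difference was 1.36 (range 1.01 to 7.54). It lay between 1 and 1.5 for 85 members, reached 2 for 18 and reached 3 for 9. Among the other receptors the median difference was 0.10, and 42 of them were lower by 1 or more in 2-cell embryos. Receptors reached a difference of 1 in 9.79% of rows, against a background of 15% over all 21367 rows with 1 symbol, and they were lower by 1 or more in 2.98% of rows, against 19%. The plot of these differences shows a single broad peak near 0 with a thin tail to the right.

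**Figure D1:**
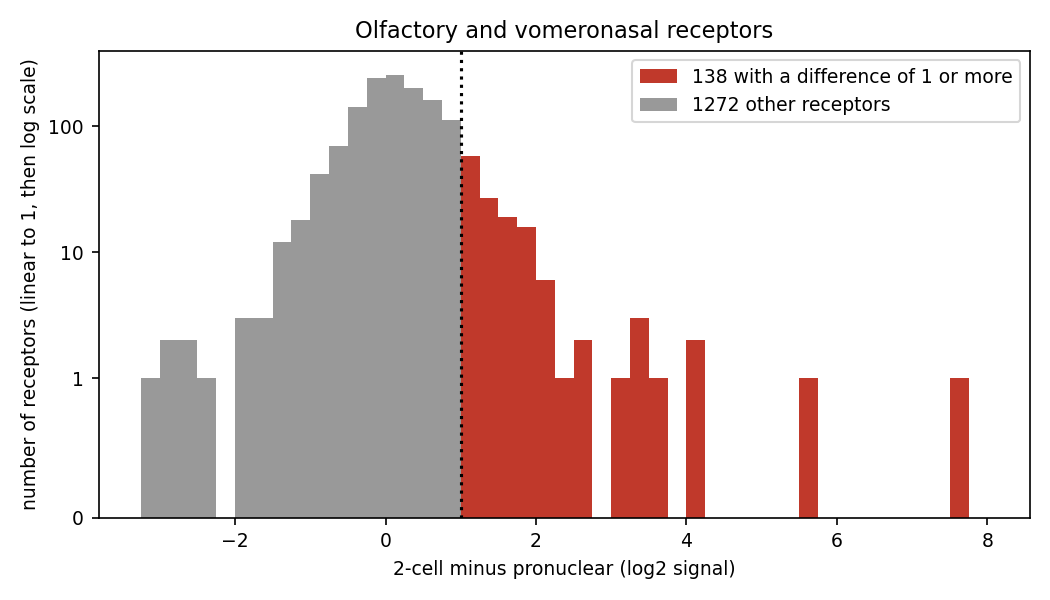
Number of receptors (y axis, linear to 1 and then log scale) by the 2-cell minus pronuclear difference in log2 signal (x axis, bins of 0.25), with the 138 members in red and the 1272 other receptors in grey, stacked. The dotted line marks the difference of 1 that chose the members. The bulk of the receptors lies near 0, and 9 members lie at 3 or more.

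The threshold cuts through a continuous range. Just inside it were Vmn2r102 (1.01), Olfr965 (1.01) and Vmn1r234 (1.02), and just outside Olfr1382 (0.998), Olfr126 (0.99) and Olfr1168 (0.99). Vmn2r102 had signals of 5.35 and 5.38 in 2-cell embryos, against 4.36 and 4.36 in pronuclear embryos. Olfr1382, outside, had 7.02 and 6.39 in 2-cell embryos, against 6.17 and 5.25 in pronuclear embryos. The duplicate arrays of a stage differed by 1 or more for 43 of the 138 members at the 2-cell stage and for 18 at the pronuclear stage, so the membership of receptors near the threshold rests on the spread between 2 arrays.

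Olfr815 (chromosome 10, 129901776 to 129902726, mm10) had the largest difference of all receptors. Its signals were 10.99 and 11.17 in 2-cell embryos, against 3.48 and 3.59 in pronuclear embryos, a difference of 7.54. In morulae it had 4.35 and 4.90, at E10.5 3.68, 3.68 and 3.76, and at E16.5 3.12, 3.66 and 3.59. Only the 2-cell arrays were high, and neither of them came near any other array.

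Olfr787 (chromosome 10, 129462678 to 129463616) had the same shape at a lower height. It had 9.17 and 9.16 in 2-cell embryos, against 3.42 and 3.68 in pronuclear embryos, a difference of 5.61. Its morula signals were 3.61 and 3.56, within the range of its pronuclear signals. At E10.5 it had 3.77, 4.10 and 3.45, and at E16.5 3.11, 4.08 and 3.40.

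Olfr118 (chromosome 17, 37672025 to 37672990) and Olfr881 (chromosome 9, 37992492 to 37993439) followed. Olfr118 had 7.79 and 8.29 in 2-cell embryos, against 4.17 and 3.61 in pronuclear embryos (difference 4.15), with 4.66 and 4.81 in morulae. Olfr881 had 6.92 and 7.86 in 2-cell embryos, against 3.03 and 3.68 in pronuclear embryos (difference 4.04), with 3.07 and 3.35 in morulae. For both genes the lowest 2-cell array lay above every other array of the series. Olfr118 was at 3.05 to 3.25 at E16.5 and Olfr881 at 2.41 to 2.83.

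Olfr120 lies near Olfr118 on chromosome 17 (37725999 to 37726991). It had 7.77 and 9.06 in 2-cell embryos, against 5.06 and 4.29 in pronuclear embryos, a difference of 3.74, and 5.32 and 5.05 in morulae. Its 2-cell arrays differed by more than 1, yet both exceeded all others. Olfr665 (chromosome 7, 104880705 to 104881659) had 6.60 and 6.19 in 2-cell embryos, against 3.19 and 2.75 in pronuclear embryos, a difference of 3.42.

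Olfr810 (chromosome 10, 129790609 to 129791614) ended below its own starting level. It had 9.26 and 9.15 in 2-cell embryos, against 5.71 and 5.96 in pronuclear embryos (difference 3.37). In morulae it had 4.15 and 4.45, below its pronuclear signals. Vmn2r94 (chromosome 17, 18243570 to 18277566), a type 2 vomeronasal receptor with a large outer domain, had 9.22 and 9.06 in 2-cell embryos, against 6.17 and 5.39 in pronuclear embryos, a difference of 3.36, and its morula signals were 6.65 and 5.62. Both genes were highest on the 2-cell arrays.

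Some members stayed high in morulae. Olfr376 (chromosome 11, 73371246 to 73375704) had 6.92 and 7.15 in 2-cell embryos, against 3.59 and 4.31 in pronuclear embryos (difference 3.09), and still 6.32 and 5.81 in morulae. Olfr1372-ps1 (chromosome 11, 52154876 to 52157907), named as a pseudogene, had 7.34 and 6.90 in 2-cell embryos, against 4.56 and 4.44 in pronuclear embryos (difference 2.62), and 7.77 and 7.04 in morulae. Vmn1r53 (chromosome 6, 90223317 to 90224438) had 7.31 and 5.88 in 2-cell embryos, against 3.83 and 4.79 in pronuclear embryos (difference 2.28), and 5.74 and 7.44 in morulae. For Olfr1372-ps1 and Vmn1r53 the morula and 2-cell arrays overlapped.

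The remaining 4 of the 15 largest differences were 2.58 for Olfr937 (chromosome 9), 2.24 for Olfr129 (chromosome 17), 2.16 for Olfr824 and 2.13 for Olfr814 (both on chromosome 10). Olfr814 rested mainly on 1 array: it had 6.75 and 4.49 in 2-cell embryos, against 3.66 and 3.33 in pronuclear embryos, and 3.30 and 5.05 in morulae. The annotated span of Olfr824 contains that of Olfr823, another member on the same strand with a difference of 1.65. Probes that read more than 1 of these transcripts could not be told apart, since no probe sequences were used here. The spans of 5 of the 138 members overlapped that of another receptor.

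**Figure D2:**
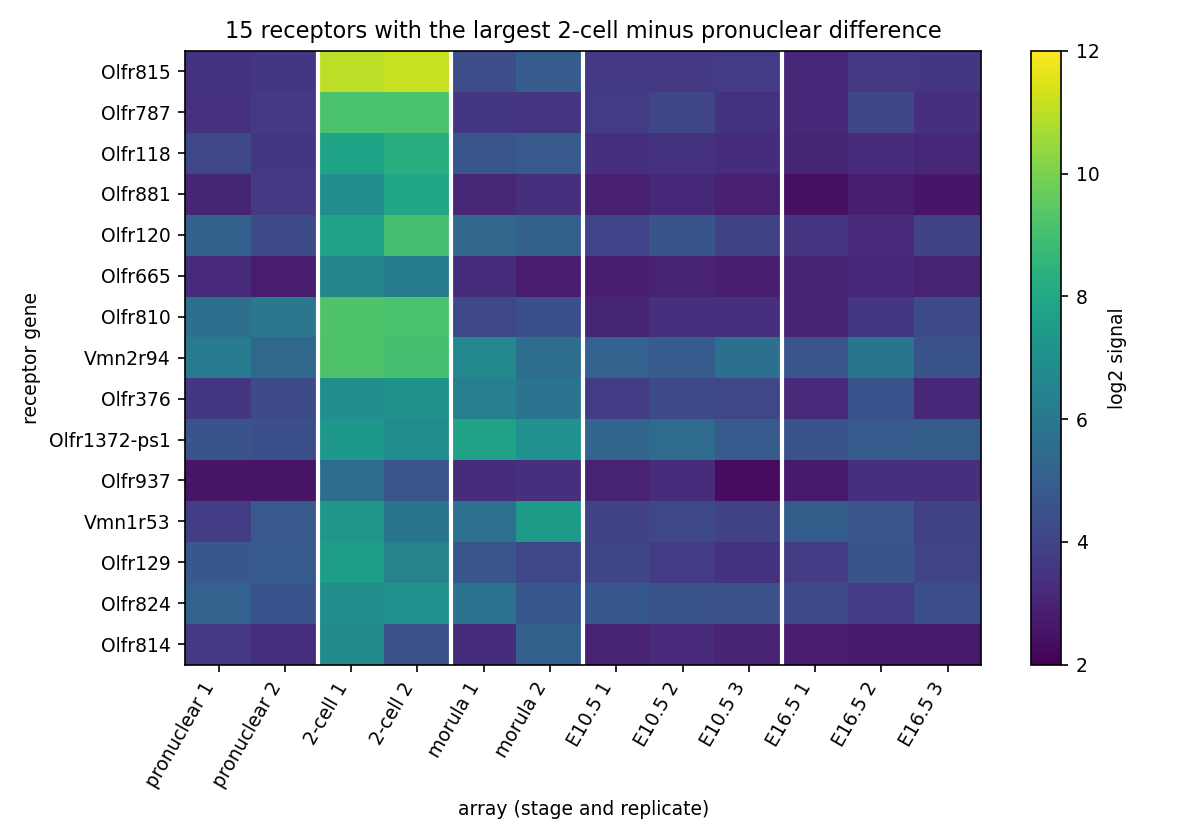
Log2 signal (colour) of the 15 members with the largest 2-cell minus pronuclear difference (y axis, largest at the top) on each of the 12 arrays (x axis, in order of stage). The 2-cell columns run from 10.99 and 11.17 for Olfr815 to 6.75 and 4.49 for Olfr814, whose second 2-cell array lies below its second morula array (5.05). Olfr376, Olfr1372-ps1 and Vmn1r53 have morula signals of 5.74 to 7.77.

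As a group, the members were ordinary receptors outside the 2-cell stage. The median of their stage means was 4.09 at the pronuclear stage, 5.51 at the 2-cell stage, 4.61 at the morula stage, 4.07 in E10.5 and 3.99 in E16.5 embryos. The other receptors had medians of 4.22, 4.33, 4.48, 3.99 and 3.85 at the same stages. In 2-cell embryos 36 of the 138 members exceeded the median of all probe sets on the arrays, against 2 at the pronuclear and 7 at the morula stage, 3 in E10.5 and 1 in E16.5 embryos. Most of the members' 2-cell signals thus stayed below the middle of the array.

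The stage of the highest mean differed between members and other receptors, as the choice of the members partly fixes. It was the 2-cell stage for 122 members, the morula for 14 and E16.5 for 2. Of the other 1272 receptors, 616 were highest in morulae, 344 in 2-cell embryos, 216 in pronuclear embryos, 70 in E10.5 and 26 in E16.5 embryos. In the authors' deposited table, whose detection rule is not given, the flag T was set for 136 of the 138 members at the 2-cell stage, 71 at the pronuclear stage, 77 at the morula stage, 75 at E10.5 and 61 at E16.5. As shares in the authors' deposited table, the flag was set for 98.6% of members, 71.5% of other receptors and 92.5% of all rows at the 2-cell stage. At the pronuclear stage it was set for 51.4% of members, 64.2% of other receptors and 92.4% of all rows, and at the morula stage for 55.8%, 52.0% and 87.6% of them in the same order. The 2-cell and pronuclear flags come from the arrays that chose the members.

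**Figure D3:**
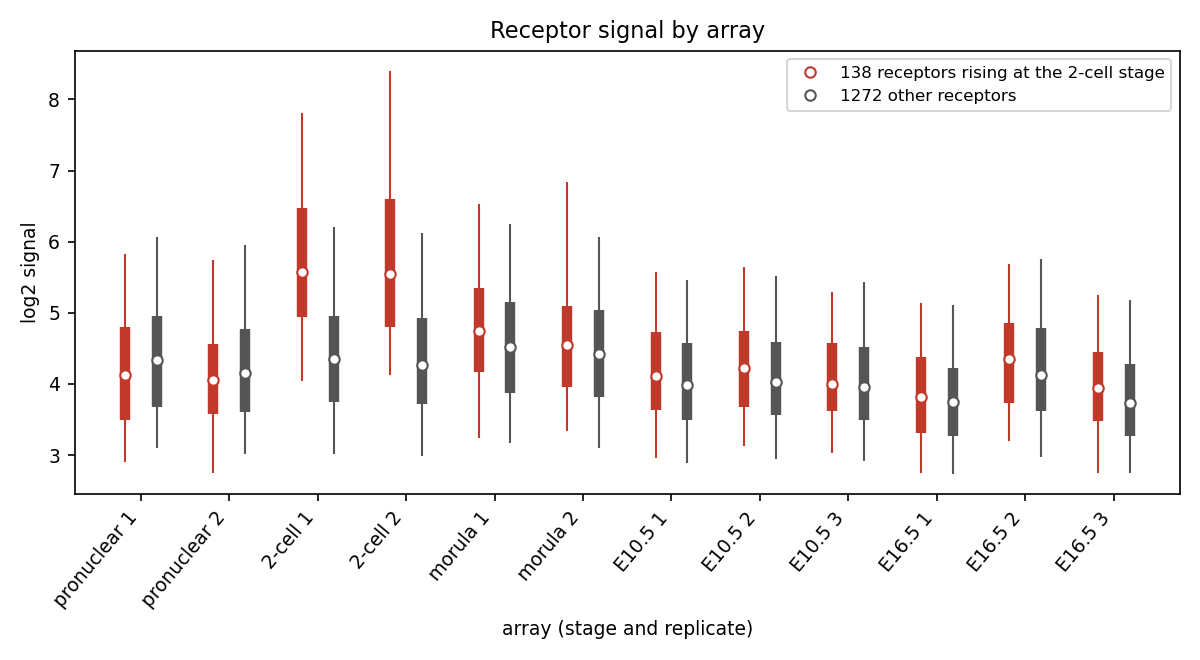
Log2 signal (y axis) of the 138 members (red, left of each pair) and the 1272 other receptors (grey, right of each pair) on each of the 12 arrays (x axis). Open circles are medians, thick bars the middle part between the 25th and 75th percentiles and thin lines the 5th to 95th percentiles. The members' medians stand above those of the other receptors on both 2-cell arrays (5.58 and 5.55 for members, against 4.35 and 4.27 for other receptors) and lie close to them at E10.5 and E16.5.

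In limma's fit over all rows, 114 of the 138 members passed upward in the comparison that chose them, where the background is 15.7%, and 132 had every 2-cell array above every pronuclear array, where the background is 30%. Nothing is read from these counts.

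In morulae the signals of most members were lower again. The morula mean lay below the 2-cell mean for 124 of 138 members and at or above it for 14. The members' median morula minus 2-cell difference was -0.91, against 0.18 in the other receptors and 0.11 over all rows. Of the members, 59 were lower by 1 or more, a cut for which no share over all rows is given. This comparison shares the 2-cell arrays that chose the members, which by itself favours a fall, so it is given without a test of the members. For 78 members every morula array lay below every 2-cell array, where the background over all rows is 29.8%, and for 3 every morula array lay above, where it is 35%. The median morula minus pronuclear difference was 0.56 for the members, 0.25 for the other receptors and 0.16 over all rows, and 28 members were at least 1 above their pronuclear mean. It shares the pronuclear arrays that chose the members, which by itself favours a positive difference, so nothing is read from it. The median member had lost 61.3% of its 2-cell difference.

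The size of the return varied between members. Olfr815 was lower in morulae than in 2-cell embryos by 6.45 and Olfr787 by 5.58, whereas for Olfr376 the difference was 0.97 and for Vmn2r29 0.07. Vmn1r6 had its highest signals in morulae, not in 2-cell embryos. It had 6.10 and 5.25 in morulae, against 4.85 and 5.05 in 2-cell embryos, with 4.29 and 2.94 in pronuclear embryos.

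The difference between E10.5 embryos and morulae uses no array of the rule. It was tested with limma over all 21367 rows, adjusted by Benjamini-Hochberg. The spread behind the test was estimated from all 12 arrays, among them those that chose the members. At E10.5, 29 of the 138 members were lower than in morulae and 0 were higher (38 lower and 0 higher at an unadjusted p under 0.05). That is 21.01% lower, against a background of 26.7% lower over all rows, and against 254 of the other 1272 receptors (19.97%). The background of higher calls is 25.1% over all rows, and 6 of the other 1272 receptors were called higher. The members' median difference was -0.45, close to the -0.42 of the other receptors, with -0.17 over all rows. For 54 members every E10.5 array lay below every morula array, where the background is 37.6%, and for 6 above, where it is 31.8%. The share of members that fell was thus near that of the other receptors.

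This comparison depends on how arrays are scaled. With arrays centred on the receptor median, limma called 7 members higher and 10 lower at E10.5, where 33.1% of all rows were higher and 16.1% lower, and the median of all rows moved to 0.31. Centred on the upper quartile it called 0 members higher and 45 (32.6%) lower, where 21.4% of all rows were higher and 33.7% lower. The column names of the deposited table carry a different date for the 6 arrays of the early stages and the 6 arrays of the late stages, so that date, pool against single embryo, and stage cannot be told apart here.

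The 5 largest falls were those of members that had been bright in morulae or kept their 2-cell signal there. Olfr1196 (chromosome 2, 88700383 to 88701327) had 3.64, 3.74 and 4.08 at E10.5, against 6.54 and 7.10 in morulae, after 7.71 and 7.67 in 2-cell embryos. It fell by 3.0 ± 0.30 (SE, limma, adjusted p = 5.36e-07). Its pronuclear signals of 6.03 and 6.47 were already high, and no late array reached any early one.

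Vmn1r53 had 3.97, 4.15 and 3.94 at E10.5, against 5.74 and 7.44 in morulae, and fell by 2.57 ± 0.50 (SE, limma, adjusted p = 0.000430). Olfr1372-ps1 had 5.26, 5.48 and 4.87 at E10.5, against 7.77 and 7.04 in morulae, and fell by 2.20 ± 0.30 (SE, limma, adjusted p = 1.29e-05). Olfr376 had 3.77, 4.23 and 4.13 at E10.5, against 6.32 and 5.81 in morulae, and fell by 2.02 ± 0.39 (SE, limma, adjusted p = 0.000396). These 3 genes, like Olfr1196, had no overlap between the E10.5 and morula arrays.

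Vmn1r6 had 3.49, 4.21 and 3.68 at E10.5, against 6.10 and 5.25 in morulae, and fell by 1.88 ± 0.39 (SE, limma, adjusted p = 0.000840). All 5 kept their call in every alternative that was run for them. Of the 4 members with the largest 2-cell differences, Olfr815 fell by 0.92 ± 0.27 from its low morula signal (SE, limma, adjusted p = 0.00951) and Olfr118 by 1.37 ± 0.27 (SE, limma, adjusted p = 0.000427). Olfr787 (0.19, adjusted p = 0.638) and Olfr881 (-0.24, adjusted p = 0.560) did not pass limma's test.

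Signals of 3 members stayed above the 95th percentile of the other receptors (6.03, 6.04, 5.37 and 5.24 from the 2-cell stage to E16.5) in every stage after the pronuclear one. The rule for naming genes lists Vmn2r29, Olfr1393, Olfr1372-ps1, Vmn1r210 and Olfr1196 as the brightest in morulae, and Vmn2r29, Olfr1393 and Olfr1412 as those brightest in both late stages. Vmn2r29 (chromosome 7, 7212660 to 7278289) had 5.59 and 6.17 at the pronuclear stage, 7.81 and 7.40 at the 2-cell stage, and 7.36 and 7.72 at the morula stage. E10.5 embryos gave 7.70, 7.43 and 7.15, and E16.5 embryos 7.80, 8.26 and 8.01. Its pronuclear arrays were the lowest, and its 2-cell, morula and E10.5 arrays overlapped. Every E16.5 array lay above every morula and every E10.5 array. The E16.5 minus E10.5 difference of 0.60 ± 0.26 did not pass limma's test (SE, adjusted p = 0.0872).

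Olfr1393 (chromosome 11, 49280150 to 49281085) had 8.42 and 9.41 in 2-cell embryos, against 7.08 and 7.38 in pronuclear embryos, so it was bright before its 2-cell difference of 1.68. It had 7.36 and 7.61 in morulae, 6.64 to 7.03 at E10.5 and 5.97 to 7.16 at E16.5. Olfr1412 (chromosome 1, 92588332 to 92589297) had 7.18 and 6.61 in 2-cell embryos, against 4.90 and 6.0 in pronuclear embryos, and 5.98 to 6.62 at E16.5. Vmn1r210 (chromosome 13, 22827194 to 22828114) had 6.94 and 7.28 in morulae and fell at E10.5 by 1.62 ± 0.31 (SE, limma, adjusted p = 0.000361). The plot of these receptors shows the 3 that stay high beside the 5 that fell.

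**Figure D4:**
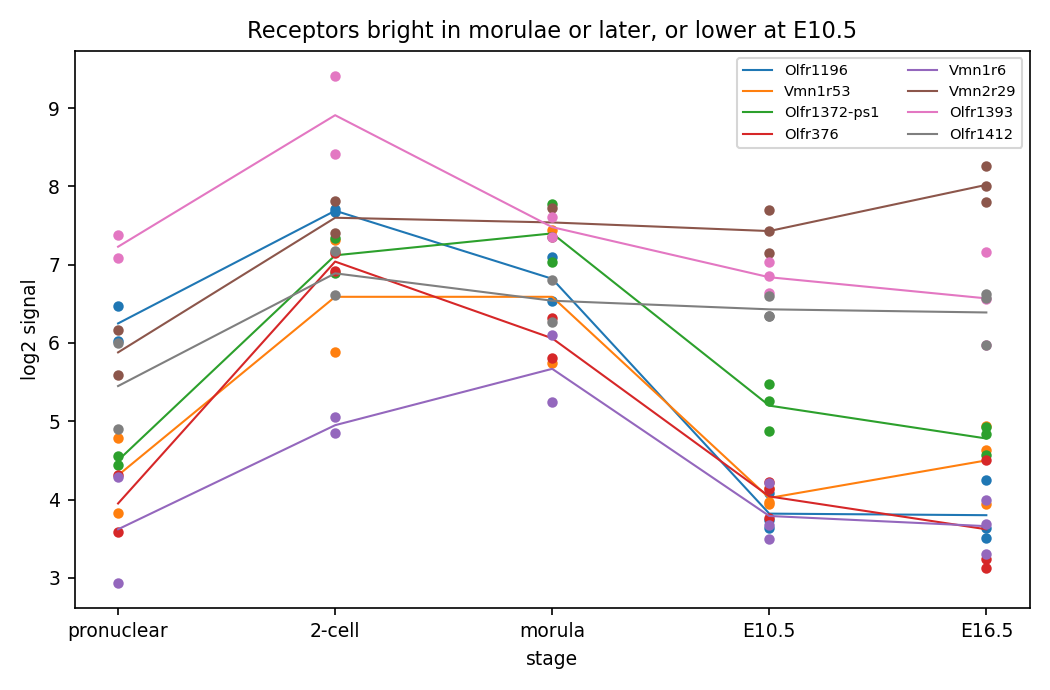
Log2 signal (y axis) by stage (x axis, equally spaced, not to the scale of time) of the 5 members with the largest falls between morula and E10.5 and the 3 members brightest at E10.5 and E16.5. Points are single arrays and lines join stage means. Olfr1196, Vmn1r53, Olfr1372-ps1, Olfr376 and Vmn1r6 drop at E10.5, while Vmn2r29 stays between 7.15 and 8.26 from the 2-cell stage on.

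Between E16.5 and E10.5, 2 stages of 1 date, limma called 0 of the 138 members in either direction at an adjusted p of 0.05, where the background over all rows is 17.4% higher and 20.2% lower. At an unadjusted p under 0.05 there were 2 higher and 4 lower, and the lowest adjusted p was 0.0551. The median difference was -0.15, against -0.13 in the other receptors, of which 4 passed higher and 11 lower, and -0.08 over all rows. Every E16.5 array lay above every E10.5 array for 2 members, where the background is 22.2%, and below for 19, where it is 27.6%. The arrays of E16.5 differed among themselves, with member medians of 3.82, 4.36 and 3.94. With array weights limma called 7 members, all lower. Without replicate 2 of E16.5 it called 5, all lower, without its replicate 1 it called 2 higher and 1 lower, and without replicate 1 or replicate 2 of the 2-cell stage 3 lower.

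Members made up 9.79% of all receptor rows. Their share differed between chromosomes, which was not tested. Chromosome 10 held 15 members among 74 receptors and chromosome 17 held 14 among 94, against 26 of 285 on chromosome 2, 37 of 374 on chromosome 7 and 3 of 88 on chromosome 6. Of the 18 members with a difference of 2 or more, 5 lay on chromosome 10 and 5 on chromosome 17. Among the families, members made up 9.40% of Olfr, 13.2% of Vmn1r and 8.06% of Vmn2r rows. All 138 members were found by symbol and overlapping position in RefSeq, 134 as protein-coding genes and 4 as pseudogenes.

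When receptors less than 1 Mb apart were chained into clusters, 21 of the 69 clusters held at least 20 receptors, and members made up between 0% and 25% of those. The chromosome 10 cluster (128989849 to 130497379) stood at the top with 15 members of 60. Its other 45 receptors had a median difference of 0.25. In the olfactory receptor cluster of chromosome 17 (37085191 to 38336097) 8 of 46 were members and the others had a median of 0.18. In the cluster of chromosome 2 with 221 receptors, 22 were members.

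Of the 138 members, 73 (52.9%) lay within 100 kb of another member. Among the 1271 other receptors with a position, 450 (35.4%) lay within 100 kb of a member. Members formed 28 chains of 2 or more linked by such gaps and 65 stood alone. The members were chosen by their difference, and neighbouring receptors are often similar in sequence, so that cross-hybridisation of probes between them was not tested. No member had the same signals as another row on all 12 arrays, whereas 11 of the other receptors did.

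The longest chain joined 5 members on chromosome 10 (129132831 to 129351509), Olfr770, Olfr772, Olfr774, Olfr780 and Olfr782, with differences of 1.22, 1.76, 1.42, 1.07 and 1.39. Olfr772 had 6.40 and 6.78 in 2-cell embryos, against 4.80 and 4.87 in pronuclear embryos. The difference of Olfr782 rested on 1 array, with 4.25 and 6.58 in 2-cell embryos, against 4.09 and 3.97 in pronuclear embryos. The 7 receptors between these 5 had a median difference of 0.39.

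A second chain on the same chromosome (129790609 to 129946060) held Olfr810, Olfr814, Olfr815 and Olfr818, with differences of 3.37, 2.13, 7.54 and 1.31. Olfr818 had 5.96 and 5.40 in 2-cell embryos, against 3.92 and 4.82 in pronuclear embryos. The 4 receptors lying between them had a median difference of -0.02, and Olfr816, 8.60 kb from Olfr815, had 0.87. The gene next to Olfr818, Olfr819, moved the opposite way, with a mean of 5.44 in 2-cell embryos, against 8.40 in pronuclear embryos.

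On chromosome 17 (37609785 to 37726991) Olfr115, Olfr118, Olfr119 and Olfr120 formed a chain with differences of 1.03, 4.15, 1.58 and 3.74. Olfr119 had 6.05 and 5.77 in 2-cell embryos, against 5.08 and 3.58 in pronuclear embryos, and fell at E10.5 by 1.57 ± 0.39 relative to morulae (SE, limma, adjusted p = 0.00298). Olfr115 had 6.16 and 5.35 in 2-cell embryos, against 5.09 and 4.36 in pronuclear embryos, and its annotated span contains Olfr116, whose difference was 0.35. Large and small differences thus stood side by side in both clusters.

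**Figure D5:**
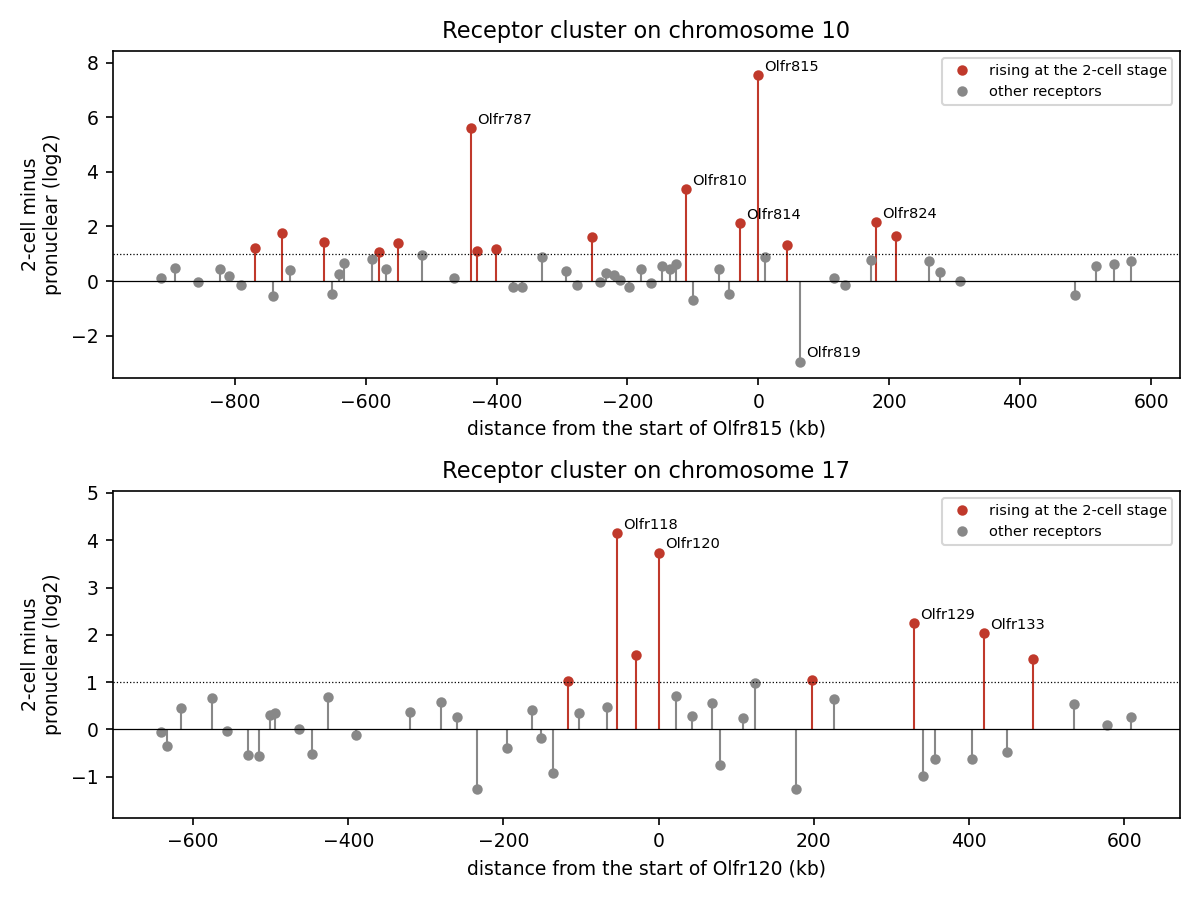
The 2-cell minus pronuclear difference in log2 signal (y axis) of each receptor in the chromosome 10 cluster (top, distance in kb from the start of Olfr815) and the chromosome 17 cluster (bottom, distance in kb from the start of Olfr120). Red points are members and grey points other receptors, the dotted line marks 1, and receptors beyond 2 or -2 are named. Olfr815 (7.54) and Olfr787 (5.61) stand above their neighbours, and Olfr819 (-2.95) points down.

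Receptors that directly neighbour a member but are no members had a median difference of 0.18 (219 receptors), against 0.09 for those with no member beside them (1052). A member stood directly beside another member in 31 of 138 cases (22.5%), and 219 of the 1271 other receptors with a position stood directly beside a member. These shares were not tested. The nearest genes without a chemosensory symbol on either side of Olfr815 and of Olfr118 did not pass limma's test between 2-cell and pronuclear embryos. They were Mettl7b (940.8 kb away, -0.00, adjusted p = 0.997) and Neurod4 (365.4 kb away, -0.24, adjusted p = 0.713) for Olfr815. For Olfr118 they were H2-M2 (188.5 kb away, -0.30, adjusted p = 0.500) and Esp36 (743.5 kb away, 0.53, adjusted p = 0.323). Beside other members some such genes passed limma's test, as Skp1a did downward, 74.1 kb from Olfr1372-ps1 (-1.98, adjusted p = 2.18e-05). Upward, Usp17la passed beside Olfr665, as given below. Over all members, the nearest gene without a chemosensory symbol was higher by 1 or more in 23.9% of cases. That compares with 20.4% for the other receptors and 15% of all rows. Its median distance was 240.2 kb for members and 146.5 kb for the other receptors. Receptors of a cluster can share that gene, as Olfr814 and Olfr815 share Neurod4, so some genes were counted more than once.

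Olfr665 lay beside a gene with a large change of its own. Its nearest neighbour without a chemosensory symbol, 18 kb away, is Usp17la, a deubiquitinase of a family known from the 2-cell stage, which had a mean of 10.84 in 2-cell embryos, against 5.34 in pronuclear embryos, and rose by 5.5 (limma, adjusted p = 3.01e-07). It was singled out after its values were seen. The receptor on the other side, Olfr666, had a difference of -0.40.

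Few genes known to work with these receptors were higher in 2-cell embryos. Of 13 genes of olfactory signal transduction, 0 passed limma's test upward and 3 fell at the 2-cell stage, where the background over all rows is 15.7% higher and 19.8% lower, and the list's median difference was -0.17. Cnga4, a subunit of the olfactory cyclic nucleotide-gated channel, fell by 1.12 ± 0.31 (SE, limma, adjusted p = 0.0105), and Pde4a, a phosphodiesterase, by 1.67 ± 0.47 (SE, limma, adjusted p = 0.0111). Mean signal over the list was 5.61 to 5.64 on the 2-cell arrays, against 5.89 to 5.91 on the pronuclear arrays. Gnal, the olfactory G protein subunit, averaged 3.27 in 2-cell embryos.

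Of 6 measured genes of vomeronasal neurons, 0 rose and 3 fell, beside the background of 15.7% higher and 19.8% lower. Their median difference was -0.76. The transcription factor Tfap2e fell by 2.40 ± 0.29 (SE, limma, adjusted p = 7.99e-06), and Meis2, another, fell by 1.52 ± 0.28 (SE, limma, adjusted p = 0.000455). Of 10 genes of the Rtp and Reep families, which are known to help receptors reach the cell surface, 0 rose and 3 fell. Reep2 fell by 3.41 ± 0.39 and Reep5 by 2.11 ± 0.29 (SE), while the median difference of the 10 was 0.29. Among 10 factors known for the choice of an olfactory receptor, Atf5 rose by 1.05 ± 0.31 and 4 fell, among them Ldb1 by 2.93 ± 0.27 and its partner Lhx2 by 2.76 ± 0.51 (SE). These 10 factors had a median difference of -0.61. These lists were drawn up with earlier results of the data known.

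Enzymes and binders of silent chromatin moved in both directions. Of 9 measured, 3 rose and 3 fell, with a median difference of 0.35. Suv39h1, a histone H3 methyltransferase, rose by 3.80 ± 0.44 and Cbx3, a heterochromatin protein, by 3.30 ± 0.28, while Setdb1, another such methyltransferase, fell by 2.67 ± 0.28 and Suv39h2 by 1.60 ± 0.29 (SE). Of 6 measured genes of olfactory progenitors, 1 rose and 1 fell, with a median difference of 0.25. The one that fell was Trp63, a transcription factor of basal stem cells, by 1.93 ± 0.42 (SE).

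Genes of other cells that a zygote preparation can carry were lower more often than higher in 2-cell embryos, as were all rows. The background over all rows is 15.7% higher and 19.8% lower. Of 12 genes of sperm and spermatids, Pgk2 rose by 1.30 ± 0.32 and 2 fell. Prm2, a protamine, fell by 1.80 ± 0.51 and Akap4, of the sperm tail, fell by 1.04 ± 0.36 (SE). The list averaged 5.43 to 5.44 on the 2-cell arrays, against 5.69 to 5.85 on the pronuclear arrays. Of 19 genes of cumulus and granulosa cells, Cyp11a1 rose by 1.89 ± 0.37 and 7 fell, the most Inha by 3.65 ± 0.33 and Ptgs2 by 2.63 ± 0.38 (SE). That list averaged 6.53 to 6.59 on the 2-cell arrays, against 7.18 to 7.31 on the pronuclear arrays. None of these markers has a true 0 on this log2 scale. Their dimmest genes were Tnp2 at 3.34 and Foxl2 at 2.52 in 2-cell embryos. The part of these cells in the receptor values was not tested.

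Genes known from genome activation are given for scale. They were listed with earlier results of these data known, so they cannot check the stage labels. Of 22 measured, 21 rose and 1 fell, with a median difference of 6.44. Guca1a, a guanylate cyclase activator, rose by 11.99 ± 0.28 and Tdpoz3, of a family with TRAF and POZ domains, by 10.18 ± 0.29, while Arg2, an arginase, fell by 3.16 ± 0.27 (SE). Olfr815, with 7.54, exceeded that median, and the next member, Olfr787, did not.

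Other families of chemosensory receptors showed few changes between 2-cell and pronuclear embryos, as did the 1410 Olfr and Vmn rows. In limma's test 125 of these 1410 rows were higher (8.865%) and 44 lower (3.121%). The background over all rows is 15.7% higher and 19.8% lower. The families were not tested against each other. Of 15 trace amine-associated receptors (Taar), 0 rose and Taar9 fell by 1.81 ± 0.36 (SE). Of 35 bitter taste receptors (Tas2r), Tas2r107 rose by 1.77 ± 0.35 and Tas2r118 by 1.37 ± 0.43, and Tas2r121 fell by 1.53 ± 0.34 (SE). Of 3 sweet and umami taste receptors (Tas1r), Tas1r3 rose by 2.28 ± 0.39, and of 5 formyl peptide receptors, Fpr1 rose by 1.25 ± 0.34 (SE). Over all the lists compared at this stage, limma's adjusted p was at most 0.0324 for each gene named as changed.

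At E16.5, when olfactory neurons are known to be maturing, 3 of the 13 genes of the signalling list were higher than at E10.5 and 1 was lower. Gnal rose by 1.81 ± 0.29 (SE, limma, adjusted p = 0.000135), Stoml3, of olfactory cilia, by 1.06 ± 0.35 (SE, limma, adjusted p = 0.0254), and Omp, the marker protein of mature olfactory neurons, by 0.95 ± 0.27 (SE, limma, adjusted p = 0.0110). Ric8b, a chaperone of that G protein, fell by 0.90 ± 0.26 (SE, limma, adjusted p = 0.0116), and the other 9 of the 13 genes did not pass, where the background over all rows is 17.4% higher and 20.2% lower. Higher too were 2 of 6 vomeronasal, 4 of 10 Rtp and Reep and 3 of 6 progenitor genes, with 1, 1 and 2 lower. Of the 10 factors for receptor choice 0 were higher and 5 lower, and of the 9 silent chromatin genes 0 were higher and 9 lower.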

How the data were processed

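Signals were analysed on the log2 scale on which the authors deposited them. Per the file headers they are gene-level SST-RMA values on annotation na36 of mm10, and per the submitters' processing notes the Transcriptome Analysis Console was used, with its version not given. Per the labels' protocols, 2 ng of QIAzol-extracted total RNA went into each array's target, and the series' design text says that early embryos were pooled. The authors' false discovery rate (a p-value type measure of an F test) and expression flags, both from the deposited table, were not used for any call. The signals of the other deposited table differed in 0 rows.

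Of 22206 probe sets, 21367 with exactly 1 symbol entered the fit, without a filter on low values, so that all 138 members were tested. Array medians lay between 6.19 and 6.59 and signals between 1.90 and 19.53, and the number of arrays limits the precision. For arrays no counting depth applies. The fit was made with limma (version 3.58.1, functions lmFit and eBayes, R 4.3.3) as a single model of 5 stages and 12 arrays. Tests were two-sided, adjusted by Benjamini-Hochberg over the 21367 rows and read at 0.05, and the script was tested on simulated data. Only E10.5 minus morula and E16.5 minus E10.5 are tested for members. Named by rule were the 15 largest differences, the 5 brightest members of the morula stage and the 3 brightest of each late stage, up to 5 largest calls per direction, the 3 rows on each side of the threshold, the members of the 3 largest chains and, per list, the 2 largest calls per direction. Members and lists were chosen with earlier results of these data known. Of the genes that the rule names, 1 is not reported here. Protein sequences and the identity between members were not analysed here. Figures used Python 3.11.15 and matplotlib 3.10.9. Alternatives were other models, scalings, rows, filters, thresholds, distances and leaving out each array.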

Additional observations from a re-analysis of the deposited data

How the results depend on the processing

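The number of members, 138, was 219 with arrays centred on the upper quartile, 37 among rows above 6 in at least 2 arrays, 414, 53 and 18 at differences of 0.5, 1.5 and 2, and 47 where every 2-cell array had to be at least 1 above every pronuclear array. Leaving out 1 early array gave 168 to 206 members, of which 102 to 115 were among the 138. The median 2-cell minus pronuclear difference of the other receptors, 0.103, turned to -0.074 with arrays centred on the receptor median, was 0.295 centred on the upper quartile, and was 0.049 to 0.173 without 1 array. The members' median morula minus 2-cell difference, -0.912, was -0.692 centred on the upper quartile and -1.058 to -0.728 without 1 array. The 29 calls of E10.5 minus morula became 17 with arrays centred on the receptor median, 45 centred on the upper quartile, 14 among the 37 brighter rows, 15 at a threshold of 0.01, and 21 to 32 without 1 array. The 0 calls of E16.5 minus E10.5 became 7 with array weights, 3 with only the arrays of these stages, 2 after quantile normalization applied again, 1 centred on the receptor median, 1 centred on the upper quartile, and 0 to 5 without 1 array. The cause was not tested. Members within 50 kb of another numbered 48, and within 500 kb 120, against 73 within 100 kb.

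Replicate numbers did not pair the samples (correlations of deviations from -0.111 to 0.0522 over 21 pairs). With the replicate number as a block, limma called 22 members in E10.5 minus morula and 0 in E16.5 minus E10.5. The other 97 values of these results stayed within 1.5 times the count, or within the spread, reported. Counts of calls were compared in total, whatever their direction. Over all rows, E16.5 minus E10.5 had 17.4% higher and 20.2% lower, but 19.2% higher and 16.9% lower with arrays centred on the upper quartile. With 2 pools per early stage, signals in the low receptor range limit what can be told from background.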

Other observations

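Several receptors outside the members were lower, not higher, in 2-cell embryos. Olfr214 (chromosome 6) had a mean of 4.41 in 2-cell embryos, against 7.50 in pronuclear embryos, and Olfr288 (chromosome 15) 5.70 in 2-cell embryos, against 8.59 in pronuclear embryos. Olfr878 on chromosome 9, the receptor next to Olfr881, had 4.77 in 2-cell embryos, against 7.51 in pronuclear embryos. These 3 were picked after their values were seen.

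Probe sets with several symbols were left out of the members. Of 52 such receptor rows, 10 had a 2-cell minus pronuclear difference of 1 or more and 3 of -1 or less, with a median of 0.28. The highest was the row shared by Spata22 and Olfr20, with 7.30 in 2-cell embryos, against 5.36 in pronuclear embryos. Of the 52 rows, 15 had the same signals as another row on all arrays.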
